A study of Mus musculus with 8 samples.

Results

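The comparison described here set D2-13B6 against B6 in an H3K27ac HiChIP experiment on mouse embryonic stem (ES) cells: 4 of the 8 libraries of the study, chosen by their line labels. B6 is C57BL/6J (cell line B6 5-1), and D2-13B6 (cell line XE 2-4) is a congenic line in which an interval of chromosome 13 from C57BL/6J was placed on the DBA/2J (D2) background. The compared lines therefore carry the same B6 alleles within that interval and differ in background elsewhere. The other 4 libraries, D2 (D2 5-5) and B6-13D2 (QJ 6-1, a D2 interval of chromosome 13 on the B6 background), give the same D2-against-B6 background comparison with the D2 interval in both lines, and share no library with it. Each line is represented by 1 cell line with 2 technical replicates, so the tests below measure the spread between library preparations of 1 culture and not the spread between independently derived lines. All 8 libraries came from cells kept in serum with LIF and the MEK and GSK3 inhibitors PD0325901 and CHIR99021.

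Acetylation of histone H3 at lysine 27 marks active promoters and enhancers. In HiChIP, chromatin is cut (here with micrococcal nuclease), neighbouring ends are ligated, and an antibody, here against H3K27ac, enriches the ligated fragments. Each count is thus a read pair that links 2 regions, called anchors, or 2 ends within 1 anchor, and the mark at either end can enrich it. A loop count therefore rises when either anchor gains the mark, when the contact becomes more frequent, or when a sequence is present in more copies, and counts alone cannot tell these apart. Congenic lines are used to separate effects of 1 chromosome segment from those of the rest of the genome, and the study's title names regulation of heterochromatin in trans as its subject. Outside the interval, locus sequence and the rest of the background differ together between the compared lines and cannot be told apart.

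The deposited table held 415681 loops between 30044 anchors. Of these, 44706 loops reached 5 counts in 2 or more of the 8 libraries and were tested. An anchor sum adds up all loops that touch an anchor, and 21211 anchors reached 10 counts in 2 or more libraries and were tested. Library totals were 952040 and 737955 counts in B6 and 1395052 and 1425304 in D2-13B6, so a tested loop had a median of 7 and 5 counts in B6 and of 9 in both D2-13B6 libraries. Values below are CPM, counts scaled to a common library size with TMM factors, of anchor sums unless loops are named. Values called counts are unscaled, and the D2-13B6 libraries are the deeper ones. Rises in counts thus look larger, and falls smaller, than they do in CPM. Log2 fold changes are D2-13B6 minus B6 from edgeR's quasi-likelihood fit over all 8 libraries, with p-values adjusted by Benjamini-Hochberg over every tested loop or anchor. All 9 ES cell marker genes examined (Pou5f1, Sox2, Nanog, Klf4, Esrrb, Zfp42, Tfcp2l1, Dppa5a and Tdgf1) started in a tested anchor, against 3 of 15 fibroblast genes and 5 of 20 extraembryonic endoderm and trophoblast genes.

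Off chromosome 11, 3550 of 19551 anchors (18.2%) were called at an FDR of 0.05, with 1589 higher in D2-13B6 (8.13%) and 1961 lower (10.0%). Among loops off chromosome 11, 2191 of 39884 (5.49%) were called, 1022 higher (2.56%) and 1169 lower (2.93%). Called-higher anchors held the start of a protein-coding gene in 48.1% of cases, called-lower anchors in 27.3% and anchors not called in 40.2%. With the abundance trend removed, 560 of 1361 called-higher and 681 of 2053 called-lower anchors held one. Median width and abundance differed as well, at 15 kb and 59.8 CPM in called-higher anchors. They were 10 kb and 29.6 CPM in called-lower anchors and 5 kb and 16.9 CPM in those not called. Called-lower anchors lay instead within gene bodies more often, at 43.5% against 31.5% of those not called. The balance between the directions depended on scaling: higher calls made up 44.8% of anchor calls with TMM factors and 27.2% with library totals alone (1056 higher, 2833 lower). It turned to slightly more higher than lower calls with a factor for each chromosome (51.2% higher), with chromosome 11 left out (50.6%) and with DESeq2 (53.1%). DESeq2 called fewer in all, 1368 anchors and 632 loops. For loops the share of higher calls was 46.6% with TMM factors, 30.9% with library totals (735 higher, 1641 lower) and 57.2% with the lower count minimum (897 higher, 670 lower). Leaving out 1 library at a time lowered the number of loop calls to 1090 without B6 replicate 1, 1384 without B6 replicate 2, 1231 without D2-13B6 replicate 1 and 1037 without D2-13B6 replicate 2. Anchor calls fell to 2047 and 1837 without D2-13B6 replicates 1 and 2.

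The loci that were lower in D2-13B6 included several genes of innate immunity. Nod1, which encodes a cytosolic sensor of bacterial peptidoglycan, lay in a 40-kb anchor (mm10 chr6:54935001-54975000) that held 410 and 306 counts in B6 (244 ± 15.6 CPM, SD, n = 2) and 103 counts in each D2-13B6 library (46.3 and 46.5 CPM). The groups did not overlap, which was a condition for being named, and the log2 fold change was −2.40 ± 0.14 (SE, edgeR adjusted p = 4.58e-27). D2 was as low as D2-13B6 (51.5 and 55.4 CPM) and B6-13D2 as high as B6 (296 and 320 CPM). The anchor at the start of Trim12a, a tripartite-motif gene of the cluster that includes antiviral restriction factors (chr7:104310001-104320000), held 62 and 58 counts in B6 and 3 in each D2-13B6 library, a log2 fold change of −4.86 ± 0.37 (edgeR adjusted p = 1.13e-19). A second anchor inside Trim12a fell from 56.0 and 60.2 CPM to 3.60 and 3.16 CPM. Aim2, a sensor of cytosolic DNA, measured 20.5 and 29.0 CPM in B6 and 3.60 and 2.71 CPM in D2-13B6 (log2 fold change −2.92, edgeR adjusted p = 4.71e-10).

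Btn2a2, a butyrophilin that restrains T cells, changed along one stretch of its anchor (chr13:23485001-23520000). The whole anchor fell from 286 and 315 CPM to 90.8 and 105 CPM (log2 fold change −1.61 ± 0.12, edgeR adjusted p = 1.13e-19). In 5-kb bins, the bin holding the gene start measured 34.9 and 30.5 CPM in B6 and 29.7 and 40.1 CPM in D2-13B6, a ratio of 1.07. The 5 bins upstream, centred 3.64 to 23.6 kb from the start, held 64 to 92 counts per library in B6 and 1 to 5 in D2-13B6, ratios of 0.0164 to 0.0325. The last bin, 28.6 kb upstream, had a ratio of 0.866. D2 gave 0 to 6 counts in those 5 bins, and B6-13D2 gave 110 to 207. At Nod1, by contrast, all 8 bins were lower, with ratios of 0.117 to 0.240.

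Other fallen anchors held the starts of Scaf4, which binds RNA polymerase II and controls transcript termination, Stard3nl, a late endosomal protein of cholesterol transport, and the ubiquitin-like modifier Ubd together with the olfactory receptor gene Olfr94. The Scaf4 anchor (chr16:90280001-90315000) measured 177 and 159 CPM in B6 and 49.9 and 46.0 CPM in D2-13B6 (log2 fold change −1.81 ± 0.14, edgeR adjusted p = 4.37e-19). Stard3nl fell from 79.7 and 80.0 CPM to 20.2 and 22.1 CPM, and Ubd with Olfr94 from 171 and 165 CPM to 65.2 and 63.1 CPM. The loop inside the anchor of Mras, a gene of a small GTPase related to Ras, fell from 389 and 239 counts to 167 and 193 (log2 fold change −1.47 ± 0.14, edgeR adjusted p = 4.73e-24). Ppp2r3d, a regulatory subunit gene of protein phosphatase 2A, fell from 44.2 and 70.1 CPM to 12.1 and 10.8 CPM. The predicted gene Gm21915 (chr9:40625001-40675000) fell from 468 and 419 CPM to 156 and 152 CPM. At the anchors of Scaf4, Stard3nl, Ubd, Ppp2r3d and Gm21915 both D2 libraries were also below both B6-13D2 libraries.

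**Figure D1:**
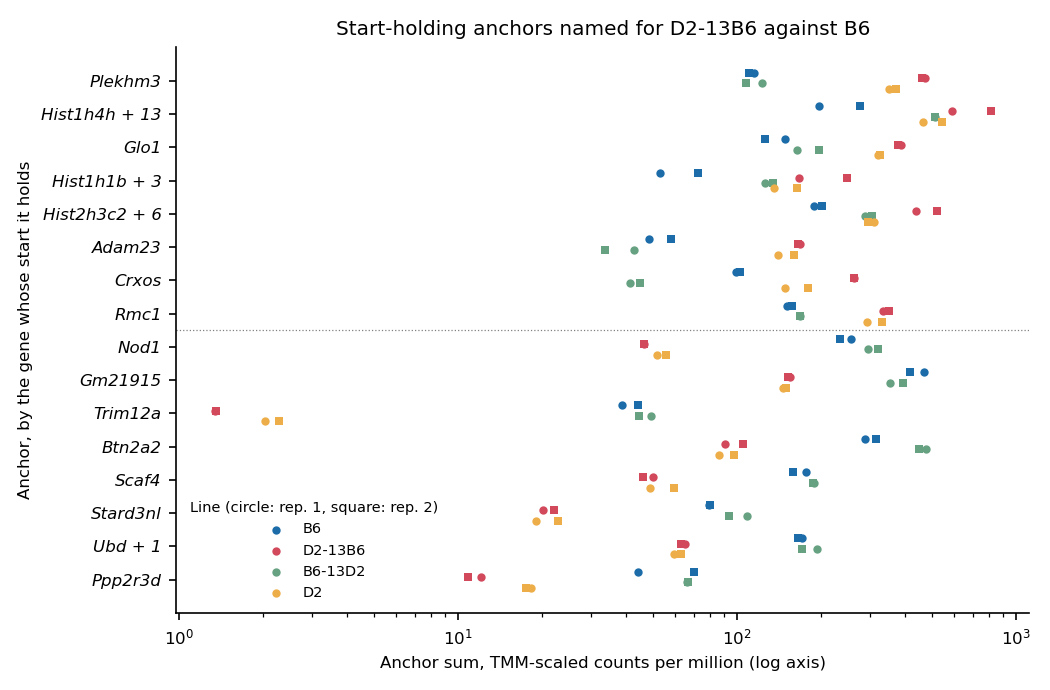
Anchor sums in TMM-scaled CPM (log axis) for the 16 anchors with a protein-coding start named for D2-13B6 against B6, 8 higher above the dotted line and 8 lower below it, with 1 point for each library. The B6 and D2-13B6 points do not overlap in any row, which was a condition for being named. At the histone anchors (Hist1h4h, Hist1h1b, Hist2h3c2) the D2 and B6-13D2 libraries lie together, between the compared lines.

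**Figure D2:**
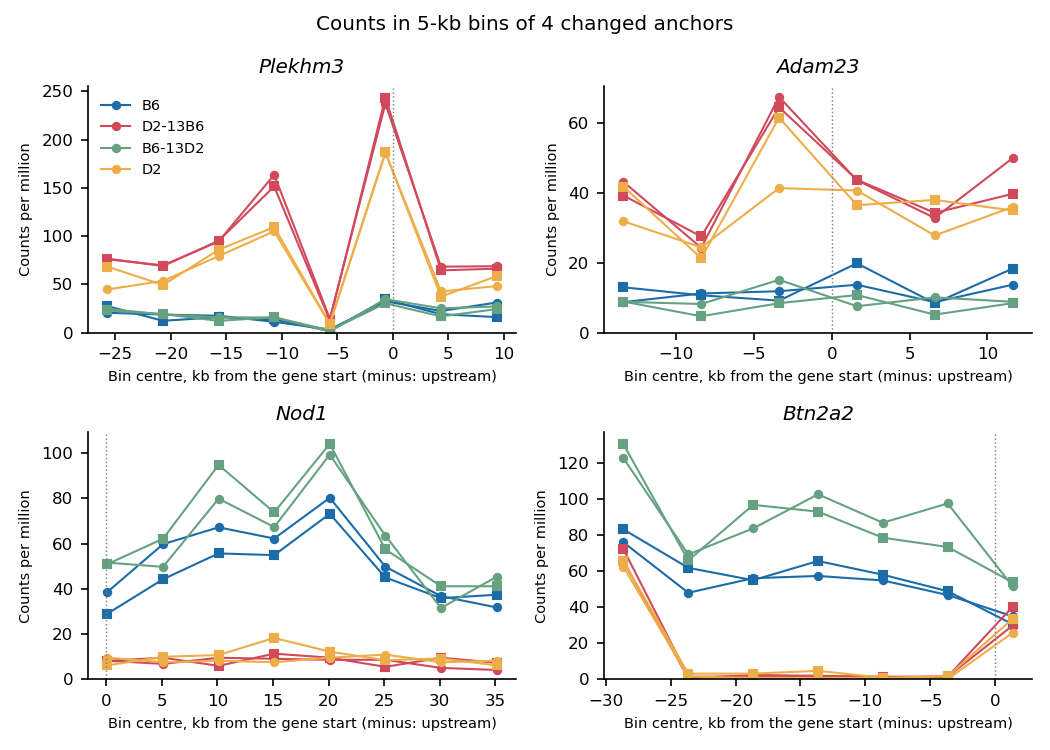
CPM in 5-kb bins against distance from the gene start for 4 changed anchors, 1 line for each library, coloured by line as in the legend. D2-13B6 and D2 are high over the whole Plekhm3 and Adam23 anchors and low over all of Nod1, while at Btn2a2 they drop to between 0 and 6 counts per library only in the 5 bins upstream of the start.

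Among loci higher in D2-13B6, the smallest adjusted p at a gene start was that of Plekhm3, a pleckstrin homology domain gene linked to muscle differentiation (chr1:64945001-64985000). Its anchor measured 115 and 111 CPM in B6 and 470 and 461 CPM in D2-13B6 (log2 fold change 2.04 ± 0.12, edgeR adjusted p = 4.74e-26). The loop inside this anchor had 67 and 39 counts in B6 and 717 and 707 in D2-13B6 (log2 fold change 3.07 ± 0.16, edgeR adjusted p = 8.39e-81). The bin at the start rose 7.21-fold and the bin 10.7 kb upstream 12.6-fold, against 2.87-fold at the edge within the gene. Adam23, a cell adhesion gene of the ADAM family (chr1:63430001-63460000), rose from 48.6 and 57.9 CPM to 168 and 166 CPM (log2 fold change 1.66 ± 0.15, edgeR adjusted p = 3.00e-16), most in the bin 3.39 kb upstream of its start, where the ratio was 6.29. Crxos, a homeobox gene active in ES cells, rose from 99.0 and 103 CPM to 262 and 263 CPM, and Rmc1, a subunit gene of a lysosomal trafficking complex, from 151 and 157 CPM to 333 and 350 CPM.

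Glo1, which encodes the glyoxalase that detoxifies methylglyoxal, rose from 148 and 127 CPM to 388 and 377 CPM (chr17:30590001-30615000, log2 fold change 1.47 ± 0.12, edgeR adjusted p = 4.68e-18). All 5 of its bins rose, by 2.54 to 3.51-fold. The neighbouring anchor at the Dnah8 and upstream Glo1 starts rose alike (log2 fold change 1.33), as did an anchor within Btbd9 at chr17:30555001-30565000 (1.22). Of the 6 other tested anchors inside Btbd9 none was called higher: their log2 fold changes ran from −1.12 to 0.44, and the lowest passed the test (edgeR adjusted p = 0.0463).

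The promoters of 5 of these genes, 250 bases before to 50 after the annotated start, are shown because all 5 are among the named changes at gene starts, in both directions, and because at Btn2a2 the change left the start bin out. They are read from RefSeq on GRCm38.p6, which is the B6 sequence, 5′ to 3′ on the strand of the gene. Capitals mark matches on either strand. The GC box was searched as GGGCGG and the CCAAT box by the letters of its name. For ETS factors the letters were CCGGAAG, and for the TATA box they were TATAAA, with no overlap between the 4 kinds.
Plekhm3, chr1:64956775-64957074, minus strand: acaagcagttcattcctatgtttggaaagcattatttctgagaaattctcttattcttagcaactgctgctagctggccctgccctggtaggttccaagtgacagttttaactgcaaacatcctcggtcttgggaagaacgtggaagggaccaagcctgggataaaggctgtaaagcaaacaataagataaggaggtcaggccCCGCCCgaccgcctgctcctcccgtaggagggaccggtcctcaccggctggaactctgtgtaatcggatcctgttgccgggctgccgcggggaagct
Adam23, chr1:63445641-63445940, plus strand: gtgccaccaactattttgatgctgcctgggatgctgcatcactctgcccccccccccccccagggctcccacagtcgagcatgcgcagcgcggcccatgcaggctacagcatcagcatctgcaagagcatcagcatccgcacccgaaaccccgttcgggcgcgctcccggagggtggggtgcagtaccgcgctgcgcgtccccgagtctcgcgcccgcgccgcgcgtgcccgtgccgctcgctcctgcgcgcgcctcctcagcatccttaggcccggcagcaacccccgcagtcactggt
Nod1, chr6:54972563-54972862, minus strand: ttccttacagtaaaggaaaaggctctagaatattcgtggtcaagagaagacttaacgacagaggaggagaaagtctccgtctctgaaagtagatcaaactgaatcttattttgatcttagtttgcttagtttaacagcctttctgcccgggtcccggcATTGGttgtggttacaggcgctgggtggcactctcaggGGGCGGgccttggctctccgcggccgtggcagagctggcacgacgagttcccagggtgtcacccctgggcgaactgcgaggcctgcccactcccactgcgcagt
Trim12a, chr7:104315446-104315745, minus strand: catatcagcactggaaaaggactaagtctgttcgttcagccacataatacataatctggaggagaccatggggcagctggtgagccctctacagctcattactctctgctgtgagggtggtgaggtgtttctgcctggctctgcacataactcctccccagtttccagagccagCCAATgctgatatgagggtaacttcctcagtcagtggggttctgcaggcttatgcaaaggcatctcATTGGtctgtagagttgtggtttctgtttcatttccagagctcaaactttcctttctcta
Btn2a2, chr13:23488808-23489107, minus strand: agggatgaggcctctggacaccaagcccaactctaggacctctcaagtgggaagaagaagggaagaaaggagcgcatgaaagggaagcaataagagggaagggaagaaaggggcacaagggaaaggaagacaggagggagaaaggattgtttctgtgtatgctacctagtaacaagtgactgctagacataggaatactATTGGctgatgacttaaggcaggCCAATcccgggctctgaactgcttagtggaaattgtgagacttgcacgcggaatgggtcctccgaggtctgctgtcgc

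Plekhm3 and Nod1 hold 1 GC box each. Nod1 also holds 1 CCAAT box, and Trim12a and Btn2a2 hold 2 each. Adam23 holds none of these letters, with a GC content of 70.0% and 31 CpG dinucleotides. Trim12a has 1 CpG and Btn2a2 6. A GC box was found in 35.7% of all 32851 promoters of 27025 genes, a CCAAT box in 37.4%, an ETS match in 8.86% and a TATA box in 13.6%. Among the 10953 in tested anchors off chromosome 11 the shares of GC and TATA boxes were 58.9% and 7.56%. Promoters in anchors called 2-fold or more higher (2.01% of anchors) held a TATA box in 39 of 155 cases (25.2%), and 52 of those 155 were histone genes, many of which carry this box. Without histone genes the share was 9.71%. Promoters in anchors called 2-fold or more lower (3.63% of anchors) had a median of 9 CpG dinucleotides and those in anchors called 2-fold or more higher 12, against 20 in anchors not called.

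The largest increases were mostly away from gene starts. Of 82 anchors that were called at 4-fold or more higher off chromosome 11 (0.419% of those tested), 8 held a coding start (9.76%, against 39.5% of all tested anchors), and the median share of repeat-masked sequence in them was 44.8%, against 26.6%. The 66 anchors called at 4-fold or more lower (0.338%) held a coding start in 15 cases, with a median masked share of 32.4%. The loop between chr6:12865001-12870000 and chr6:12875001-12880000 had 1 and 2 counts in B6 and 233 and 226 in D2-13B6, a ratio of 95.7 (counting interval 32.5 to 466). D2 had 189 and 211 counts there and B6-13D2 1 and 2. The anchor on its right, 74.7% repeat-masked and without an annotated gene, rose from 3.74 and 3.81 CPM to 113 CPM in both libraries. A loop at chr10:8535001-8565000 went from 5 and 8 counts to 193 and 200, and one within Immp2l, a mitochondrial peptidase gene on chromosome 12, from 6 and 8 to 220 and 179. At chr7:34520001-34550000 the counts were 10 and 6 against 216 and 236, and at chr4:53315001-53355000 an unannotated 40-kb anchor rose from 87.2 and 64.8 CPM to 348 and 362 CPM. Each of these 5 was high in D2 and low in B6-13D2 as well.

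Long loops were called less often than short ones: 14.9% of loops inside 1 anchor, 6.26% of loops under 100 kb, 2.02% of those from 100 to 500 kb and 1.61% of those from 500 kb to 2 Mb passed the test, while their median counts over both D2-13B6 libraries were 51, 22, 13 and 11. The share of all counts in loops of 100 kb or more was 28.2% and 31.6% in B6 and 27.3% and 27.2% in D2-13B6. The B6 replicates differed from each other by more than B6 replicate 1 did from D2-13B6, and 2 libraries against 2 cannot reach an exact permutation p under 0.05. Of 11504 loops joining 2 coding starts, 203 were called higher and 118 lower (2.79% called, 63.2% of calls higher). Of 8693 with no coding start at either end, 216 were called higher and 366 lower (6.7% called, 37.1% of calls higher). Over all loops off chromosome 11, 5.49% were called. Loops between starts were thus not called higher more often, and their larger share of higher calls came with fewer lower calls.

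Some long loops were present in one background and close to absent in the other. A loop of 130 kb between chr5:104660001-104665000 and chr5:104785001-104800000 had 0 counts in both B6 libraries and 96 and 72 in D2-13B6, at least 35.0-fold higher when 3 counts over the B6 group are taken as the floor. D2 had 69 and 75 counts and B6-13D2 0 and 1. Pramef17 and Gm13128, which lie in a cluster of PRAME family genes on chromosome 4, were joined over 340 kb by 0 counts in B6 and 37 and 53 in D2-13B6, at least 18.8-fold on the same floor. A loop of 922.5 kb from the start of Gm6871 and 2610021A01Rik to that of Zfp141, a zinc finger gene (chromosome 7), rose from 4 and 13 to 131 and 140 counts. Reads of near-identical copies within such gene clusters may be shared between members, and these values are uncertain to that extent.

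In the other direction, a 455-kb loop between the starts of Btaf1, an ATPase acting on the TATA-binding protein, and Kif11, a mitotic kinesin, had 59 and 44 counts in B6 and 2 and 1 in D2-13B6 (log2 fold change −5.63 ± 0.45, edgeR adjusted p = 9.06e-32). This loop had 1 and 0 counts in D2 and 0 in both B6-13D2 libraries, so no library outside B6 held more than 2 counts. Its left anchor (chr19:36915001-36930000), at the starts of Fgfbp3 and Btaf1, measured 208 and 194 CPM in B6, 90.8 and 99.2 in D2-13B6, 89.5 and 103 in D2 and 95.6 and 99.1 in B6-13D2. Shorter fallen loops joined the starts of Tlnrd1 and Mesd to the body of Cemip (28 and 30 counts against 5 and 13) and the Gramd1b start to the Gm21915 anchor (47 and 37 against 27 and 11). A loop ending within Rerg on chromosome 6 fell from 15 and 13 to 2 and 1 counts. It lay at the edge of a 1-Mb window (137 to 138 Mb) in which all 20 tested anchors were lower in D2-13B6, 12 of them called, and all 20 lower in D2 against B6-13D2.

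Calls gathered in some windows. Of 1078 windows of 1 Mb with 8 or more tested anchors off chromosome 11, 18 had at least 50% of their anchors called higher, 21 had at least 50% called lower and 179 had no call. The densest fallen window, chromosome 19 from 61 to 62 Mb, held Zfp950 and Csf2ra and had 8 of 9 anchors called lower. A window with the zinc finger genes Zfp982, Zfp984 and Zfp985 and the retroviral restriction gene Fv1 (chromosome 4, 147 to 148 Mb) had 9 of 14 called lower. On chromosome 7 from 26 to 27 Mb, all 10 anchors around Nlrp9c and Nlrp4a, genes of the NLR family expressed in oocytes, had log2 fold changes above 0 in both pairs of lines and 5 were called higher here, with a median log2 fold change of 0.93 here and 1.23 in D2 against B6-13D2. The window of Sox2 (chromosome 3, 34 to 35 Mb) had 5 of 8 anchors called higher, and that of Nanog, Dppa3 and Gdf3 (chromosome 6, 122 to 123 Mb) 10 of 20, with medians in D2 against B6-13D2 of 0.10 and 0.03.

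The genes of the replication-dependent histones rose together. The anchor over 14 of these genes on chromosome 13, from Hist1h4h to Hist1h4d (chr13:23530001-23600000), measured 196 and 277 CPM in B6 and 588 and 811 CPM in D2-13B6 (log2 fold change 1.58 ± 0.12, edgeR adjusted p = 2.05e-19). Hist1h1b with 3 neighbours rose from 52.9 and 72.4 CPM to 167 and 248 CPM, and the 7 genes of the Hist2 cluster on chromosome 3 from 189 and 202 CPM to 438 and 522 CPM. A loop of 187.5 kb between 2 anchors of the chromosome 13 cluster rose from 22 and 23 counts to 114 and 167. In CPM this was 27.5 and 37.6 against 102 and 147 (log2 fold change 1.96). The difference between D2 and B6-13D2 was not called at these anchors: the 14-gene anchor measured 462 and 542 CPM in D2 and 512 and 513 CPM in B6-13D2. Of 60 promoters of these histone genes in tested anchors, 57 lay in an anchor called higher, against 1269 of all 10953 promoters in tested anchors off chromosome 11. Many of the 57 share an anchor, so they are not separate calls. Genes of this family are transcribed mainly while DNA is replicated. Their coding sequences are alike, so values of single copies are uncertain where reads could be divided among them. A loop from the anchor of Hist1h4k to that of Hist1h1b rose from 23 and 27 counts to 151 and 197, or from 28.7 and 44.1 CPM to 135 and 173 CPM.

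The 2 pairs of lines that differ in background share no library, so the 2 contrasts compare separate libraries, although all 8 entered the count filter, the scaling and the estimate of spread behind each call. Off chromosomes 11 and 13, 2691 of 3385 called anchors had the same sign in D2 against B6-13D2 (79.5%), and 1717 of 2063 called loops (83.2%). Over all tested anchors there, called or not, the share was 62.1% (11573 of 18635), and over all tested loops 59.4%. Of the called anchors, 1223 were called in the same direction there, 36.1% of 3385 and 45.1% of the 2712 called in D2 against B6-13D2 (14.4% of anchors and 3.68% of loops off chromosome 11 were called there), and 51 in the opposite direction. The share is given by direction and size. Anchors higher by under 2-fold had the same sign in 63.6% of 1177 cases, with a median log2 fold change of 0.57 here and 0.12 there. That share was close to the 62.9% over all tested anchors with a positive log2 fold change. Those higher by 2-fold to 4-fold had it in 93.5% of 293 cases and those higher by 4-fold or more in 98.7% of 77. Among lower anchors it did not rise steadily with size, at 88.7% of 1176 under 2-fold, 81.9% of 598 from 2-fold to 4-fold and 93.8% of 64 at 4-fold or more. At coding starts the sign was the same in 60.5% of 744 higher anchors and in 89.1% of 494 lower ones, against 57.5% and 60.5% of all tested coding-start anchors with a positive and a negative log2 fold change. The differences between these shares were not tested. Leaving out 1 library moved the share for all called anchors between 76.0% (without B6 replicate 1) and 84.6% (without D2-13B6 replicate 2).

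**Figure D3:**
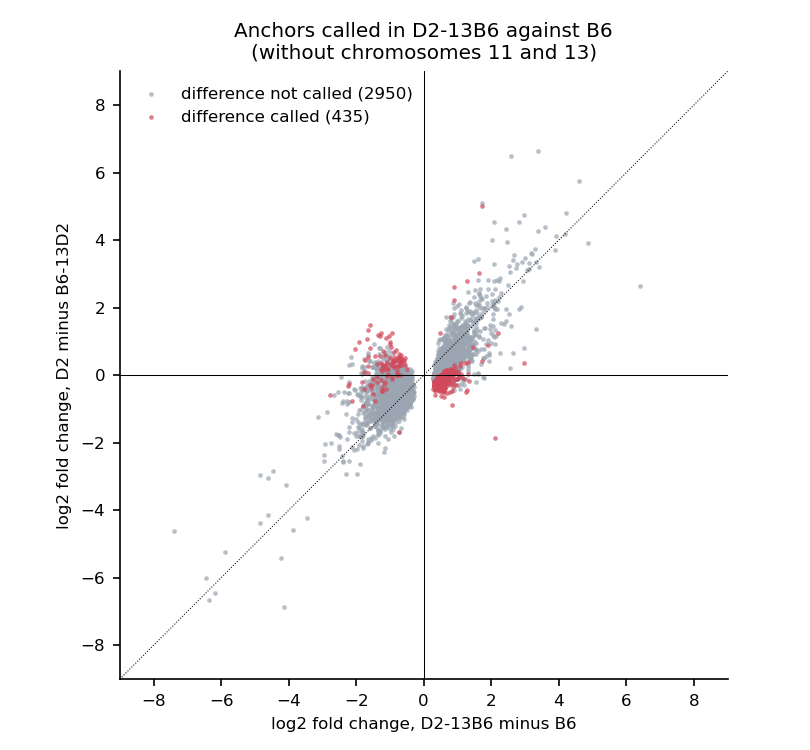
log2 fold change of D2-13B6 minus B6 (x axis) against D2 minus B6-13D2 (y axis) for the 3385 anchors called in the first comparison off chromosomes 11 and 13, 1 point for each anchor, with the 435 whose difference between the comparisons was itself called in red. The dotted line marks equal change. In the direction of the call, the median size is 0.77 on the x axis and 0.41 on the y axis, and for anchors higher by under 2-fold it is 0.57 and 0.12.

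The difference between the background effects was called for 728 of 19551 anchors off chromosome 11 (3.72%), 507 of them more positive in D2-13B6 against B6, and for 169 loops (0.424%). The split of anchors reversed with library totals alone (134 more positive, 530 more negative) and with the abundance trend removed (79 and 191), and the number fell to 353 and 210 without D2-13B6 replicates 1 and 2, to 128 and 417 without D2 replicates 1 and 2, and to 470 without B6-13D2 replicate 2. The anchor from Hist1h1c to Trim38 on chromosome 13 had a difference of 2.01 ± 0.20 in log2 fold change (edgeR adjusted p = 3.75e-12), and that of Hist1h4h one of 1.61. Differences in the other direction were called at Fgfbp3 and Btaf1 (−1.06), at Rnase10 (−1.43), where B6 at 52.9 and 48.0 CPM was above all 6 other libraries, and at Obox6, an oocyte homeobox gene (−1.06). At Obox6 the compared lines measured 138 and 131 against 170 and 167 CPM, while D2 at 79.3 and 81.3 CPM was above B6-13D2 at 31.5 and 30.4 CPM (log2 fold change 1.38).

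The median change at gene starts varied with the abundance of the anchor, and the cause was not tested. Among coding-start anchors the median log2 fold change lay between −0.10 and 0.06 in the lower 9 deciles of mean CPM and at 0.16 in the highest. That decile held 1330 of the 7730 coding-start anchors, 381 of the 764 called higher and 123 of the 536 called lower. In D2 against B6-13D2 the medians ran the other way, from 0.33 in the lowest decile to −0.16 in the highest. With the abundance trend removed, coding-start anchors were called higher 560 times and lower 681 times, against 764 and 536 in the original fit (9.88% and 6.93% of 7730).

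**Figure D4:**
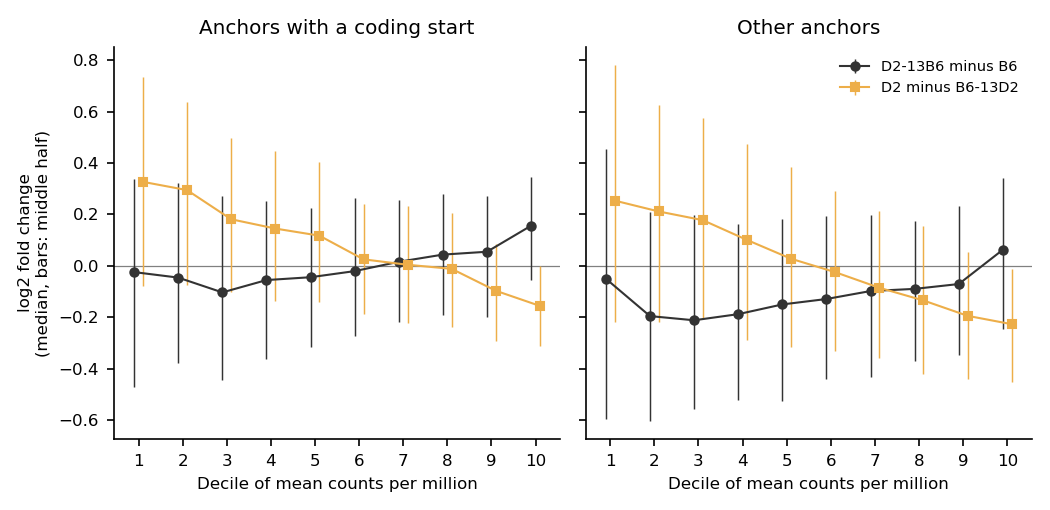
Median log2 fold change (points) and its interquartile range (bars) for anchors off chromosome 11 by decile of mean CPM, for anchors with a coding start (left) and others (right), in D2-13B6 minus B6 (black) and D2 minus B6-13D2 (yellow). In the left panel the black median is −0.02 in the lowest decile and 0.16 in the highest, and the yellow one 0.33 and −0.16.

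Gene lists are read against 16.8% of coding-start anchors called off chromosome 11 (9.88% higher, 6.93% lower) and a median log2 fold change of 0.03 over them. These backgrounds move with the setting: of the 7730 anchors, 764 were called higher and 536 lower, against 487 and 843 with library totals, 560 and 681 with the trend removed, 395 and 208 with DESeq2, 622 and 356 without B6 replicate 1, 565 and 456 without B6 replicate 2, 482 and 297 without D2-13B6 replicate 1, and 360 and 276 without D2-13B6 replicate 2. Counts of a list under a setting are to be read beside these. With library totals the median was −0.08, and over all tested anchors the median moved from −0.05 to −0.17. Of the 40 genes of histocompatibility and innate sensing, 9 started in a tested anchor off chromosome 11, 5 of which fell, among them those of Nod1, Btn2a2, Trim12a and Aim2, given above. The list was drawn up with earlier results of these data known and includes genes named above for their small adjusted p. Its share of fallen anchors is therefore a description and no test of the list. The median was −0.80 and 5 fell also with library totals and with the trend removed. With DESeq2, without B6 replicate 2, or without either D2-13B6 replicate, 4 fell. With a factor for each chromosome 4 fell and 1 rose, and 5 fell and 1 rose with chromosome 11 left out or without B6 replicate 1. The median was −1.06 and −0.53 without B6 replicates 1 and 2. Nonclassical histocompatibility genes on chromosome 17 (36 to 37 Mb) lay in a window with 7 of 11 anchors called higher and 1 lower.

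Of 24 anchors of naive pluripotency genes, 7 rose and 1 fell, with a median of 0.27. Tdgf1, a co-receptor of Nodal, rose from 197 and 152 CPM to 296 and 318 CPM (log2 fold change 0.81). Sox2 rose from 162 and 159 CPM to 256 and 292 CPM (0.77), and Dppa5a, a marker of the naive state, from 268 and 285 CPM to 420 and 435 CPM (0.63). Fbxo15, Esrrb, Nanog and Jarid2 rose by 0.53, 0.40, 0.36 and 0.28, and Lin28a, which blocks maturation of let-7 miRNAs, fell by 0.48, a call that was lost with a factor for each chromosome, with DESeq2, and without B6 replicate 1 or either D2-13B6 replicate. In D2 against B6-13D2 the median of this list was −0.03. Here it was 0.15 with library totals (6 higher, 1 lower), 0.34 with a factor for each chromosome (11 higher) and 0.33 without B6 replicate 1 (10 higher). With the abundance trend removed it was 0.05 with 4 higher and 1 lower, and without D2-13B6 replicate 2 it was 0.19 with 4 higher.

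Of 25 anchors of corepressor and heterochromatin genes, 8 rose, with a median of 0.26. Trim28, the corepressor recruited by KRAB zinc finger proteins, measured 291 and 247 CPM in B6 and 404 and 452 CPM in D2-13B6 (log2 fold change 0.66), and Zfp57, which protects imprints, 883 and 774 CPM against 1204 and 1345 CPM (0.62). Atf7ip, Smarcad1, Ehmt1, Atrx, Zfp809 and Trim24 rose by 0.54, 0.52, 0.51, 0.47, 0.40 and 0.33. Atrx lies on X, where the median over all anchors was 0.34, and with a factor for each chromosome its change was 0.15 and did not pass the test (edgeR adjusted p = 0.414). The difference from the other pair of lines was called for 8 of the 25 anchors, against 366 of all 7730 coding-start anchors. Among them was that of Trim28, whose log2 fold change in D2 against B6-13D2 was −0.00. These 8 became 3 with library totals and 1 with the trend removed, and without D2-13B6 replicate 2 none of the 25 was called, when all coding-start anchors had 97 such calls. With library totals 5 rose and 1 fell, with the abundance trend removed 4 rose and 1 fell, without B6 replicate 2 5 rose, and without D2-13B6 replicate 2 4 rose. The DNA methylation genes gave 4 of 13 higher, namely Usp7 (0.53), the dioxygenases Tet1 (0.39) and Tet2 (0.37) and Mbd3 (0.39). That list had 4 called higher without B6 replicate 2 as well, but 2 and 1 without D2-13B6 replicates 1 and 2, and its median went from 0.36 to 0.14 with the trend removed, when none of the 13 was called. DESeq2 called 3 of them, and 6 had an unadjusted p under 0.05 in the edgeR fit.

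Among formative and primed genes 3 of 11 anchors rose, those of Lef1, Myc and the shared Zic2 and Zic5 anchor. Lef1, a transcription factor of Wnt signalling, measured 14.9 and 13.7 CPM in B6 and 27.9 and 37.0 CPM in D2-13B6 (log2 fold change 1.17), and 1.13 in D2 against B6-13D2. With library totals, with the trend removed or with DESeq2, 1 of the 11 was called. Of 26 signalling anchors 4 rose and 1 fell, the latter at Spry2, an inhibitor of receptor tyrosine kinase signalling (38.6 and 54.1 CPM against 24.7 and 28.9 CPM), and the list's median of 0.10 became −0.01 with library totals. There were 2 higher and 2 lower with library totals, 2 and 3 with the trend removed and 1 higher with DESeq2. Without B6 replicate 2 this list had 2 calls, and without D2-13B6 replicate 2 it had 1. Structural proteins of chromosome loops gave 5 of 20 higher (Ep300, Nipbl, Smc3, Zfp143 and Rad21). The calls were 1 higher and 1 lower with library totals, 4 and 2 with the trend removed and 1 higher with DESeq2. They were 2 higher without B6 replicate 1 and 1 without either D2-13B6 replicate. Imprinted genes gave 3 of 14 higher, at Peg3 with Usp29, Airn and Mest, and Slc38a4 lower (97.7 and 114 CPM against 67.4 and 87.9 CPM). With library totals there were 2 higher and 2 lower, and DESeq2 called 1. The 4 imprinted calls became 2 without B6 replicate 2, 1 without D2-13B6 replicate 1 and 2 without D2-13B6 replicate 2.

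Zinc finger genes were called in 50 of 279 anchors (17.9%), 28 higher and 22 lower, against 16.8% of all coding-start anchors. The split turned to 17 higher and 35 lower with library totals and to 20 and 28 with the trend removed, and DESeq2 called 13 higher and 10 lower. Without D2-13B6 replicates 1 and 2 the calls were 17 and 11 higher and 13 and 15 lower. Ribosomal protein genes gave 15 higher and 2 lower of 72, with a median of 0.20 (0.08 with library totals, when 10 rose), 8 higher with the trend removed, 9 with DESeq2, and 7, 9 and 5 higher without B6 replicate 2 and D2-13B6 replicates 1 and 2. Of the markers of other cells, 1 of 4 extraembryonic anchors fell (Tead4, 143 and 138 CPM against 102 and 111 CPM), a call that was lost with a factor for each chromosome, with DESeq2, and without B6 replicate 1 or either D2-13B6 replicate. With TMM factors, the 3 fibroblast anchors and the 2 of lineage factors had no call by edgeR and none at an unadjusted p under 0.05, and DESeq2 called none. With a factor for each chromosome 1 fibroblast anchor was called higher. The 2 anchors of two-cell stage and germline genes had no call by edgeR with TMM factors or by DESeq2, and 1, Obox6, an unadjusted p under 0.05. In edgeR fits with a factor for each chromosome or without chromosome 11, 1 of the 2 was called higher.

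Chromosome 11 stood apart. It took 10.6% and 10.1% of all counts in B6, 10.1 to 10.3% in the D2 and B6-13D2 libraries, and 13.9% and 14.0% in D2-13B6. Of its 1660 tested anchors 665 were called (40.1%), 645 higher (38.9%) and 20 lower (1.20%). Of its 4822 loops 470 were called (9.75%), 451 higher (9.35%) and 19 lower (0.394%). Anchors with a coding start were called in 366 of 700 cases (52.3%). The median log2 fold change of its anchors was 0.46, against −0.05 elsewhere and 0.05 on chromosome 11 in D2 against B6-13D2. Medians in 10-Mb bins ran from 0.26 to 0.68, so every bin was shifted up. With a scaling factor for the chromosome itself, 153 anchors were called higher and 156 lower (18.6% in all). The difference from D2 against B6-13D2 was called for 297 of the 1660 anchors (17.9%). More copies of the chromosome and more acetylation or contact along it cannot be told apart in these counts.

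Some loci on chromosome 11 exceeded this shift. The anchor of Lyrm7 and Hint1 (chr11:54835001-54870000) rose from 188 and 178 CPM to 497 and 516 CPM (log2 fold change 1.47, and 0.99 with the factor for the chromosome). A loop near 88.9 Mb (chr11:88885001-88910000) rose from 17 and 4 counts to 185 and 191, and one reaching into Acyp2 from 7 and 4 to 117 and 130. Both were also high in D2 and low in B6-13D2. Utp6 with Suz12, a Polycomb subunit gene, rose from 607 and 532 CPM to 1243 and 1380 CPM, by 1.20 in log2 fold change and by 0.73 with the factor for the chromosome. Ranbp17, a nuclear transport receptor gene, and the anchor of Borcs6, Tmem107, Vamp2 and the clock gene Per1 rose by 1.12 and 1.18, and by 0.65 and 0.70 with that factor. Against the general rise, the loop inside the Ypel2 anchor fell from 368 and 310 CPM to 207 and 210 CPM. Loops inside an anchor within Nxn and inside one at 57.5 Mb fell too (log2 fold changes −0.69 and −1.28), but the first did not pass the test without D2-13B6 replicate 2 (edgeR adjusted p = 0.0683) nor the second without B6 replicate 1 (edgeR adjusted p = 0.0647). The fallen anchors of Fam114a2 with Mfap3 and of Slc39a11 (−0.60 and −1.05) did not pass without D2-13B6 replicate 1 (edgeR adjusted p = 0.113 and 0.142) or with DESeq2 (DESeq2 adjusted p = 0.156 and 0.143). Fam114a2 also failed without B6 replicate 1 or D2-13B6 replicate 2 (edgeR adjusted p = 0.134 and 0.0684), and Slc39a11 without B6 replicate 2 (edgeR adjusted p = 0.0915).

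**Figure D5:**
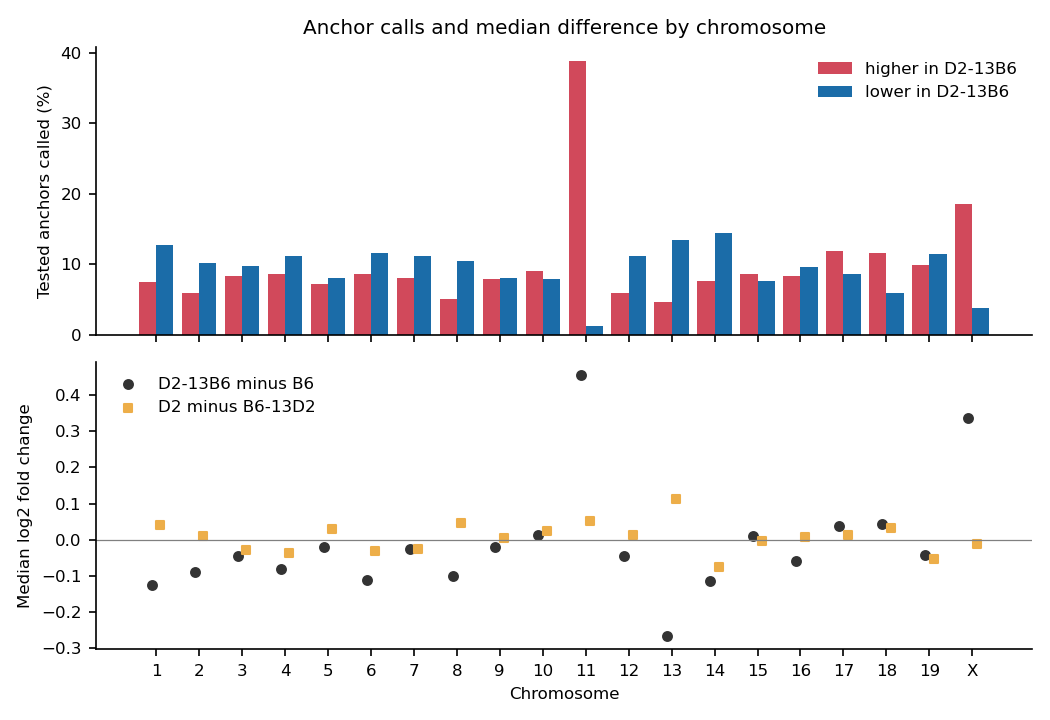
Share of tested anchors called higher (red) or lower (blue) in D2-13B6 against B6 on each chromosome (top, bars from 0), and the median log2 fold change of its anchors in D2-13B6 minus B6 (black) and D2 minus B6-13D2 (yellow, bottom). Chromosomes 11 and X are shifted up, to medians of 0.46 and 0.34, and chromosome 13 down, to −0.27, in the first comparison.

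Chromosomes X and 13 had smaller median shifts. X took 1.2% and 1.3% of counts in B6 1.4% in each D2-13B6 library and 1.4 to 1.5% in the D2 and B6-13D2 libraries, so that B6 was the lowest of the 4 lines. Its median log2 fold change was 0.34 here and −0.01 in D2 against B6-13D2, and 87 of its 471 anchors were called higher and 18 lower (22.3% in all). With its own scaling factor 20 were called higher and 36 lower (11.9%). Chromosome 13, which carries the shared interval, took 3.10% and 3.39% of counts in B6 and 2.80% and 2.82% in D2-13B6, with a median log2 fold change of −0.27 over 916 anchors. With its own scaling factor 117 of them were called (12.8%), and 50 of these by 2-fold or more (5.46%, against 5.22% off chromosomes 11 and 13). By edgeR, none of the 100 anchors from 50 to 60 Mb and none of the 124 from 60 to 70 Mb was among those 50, where 0 and 3 had an unadjusted p under 0.05 at that size. DESeq2, run without the factor for the chromosome, called 1 in each bin. In D2 against B6-13D2, 0 and 1 of these anchors were called by 2-fold or more. From 70 to 80 Mb 7 of 53 were called by 2-fold or more here and 4 there, with none in both. Few such calls were also found from 30 to 40 Mb (1 of 60 here and 3 there) and from 40 to 50 Mb (1 of 108 here and 2 there). Over all of chromosome 13, 18 of 916 anchors were called by 2-fold or more in both, and 397 of 18635 off chromosomes 11 and 13. The bin from 20 to 30 Mb, which holds the histone cluster and Btn2a2, had 16 of 67 anchors called by 2-fold or more. Outside it, the loop inside the anchor of Nnt, the mitochondrial transhydrogenase, and Paip1 fell from 106 and 75 counts to 44 and 34 (chr13:119405001-119435000), and that inside an anchor within 1700029F12Rik from 77 and 48 to 14 and 19. A loop at chr13:19950001-19970000 rose from 11 and 12 to 109 and 126 counts. All 3 differed the same way in D2 against B6-13D2.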

How the data were processed

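The measurements are H3K27ac HiChIP read pairs from 8 libraries of mouse ES cells, 2 technical replicates for each of 4 lines (150-bp pairs, MNase digestion, per the labels' protocols). The authors deposited raw counts per loop in 1 table of all 8 libraries, and counts per pair of 5-kb bins for each library. Per the submitters' processing notes the build was mm10 and the tools included BWA 0.7.18, SAMtools 1.19.2 and edgeR 3.34.1. Their roles and the loop caller are not given in the sources used here. Since mm10 is the B6 sequence, D2 reads may align less completely where the strains differ, and the part of this in any result was not tested.

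Loop counts and anchor sums were fitted with edgeR 4.0.16 (quasi-likelihood test, TMM factors, R 4.3.3) over all 8 libraries, with 1 mean for each line. Each count column was matched to a sample by its name. The contrasts were D2-13B6 minus B6, D2 minus B6-13D2 and their difference, at an FDR of 0.05 with Benjamini-Hochberg adjustment across the whole tested table. Named loops and anchors are called ones whose B6 and D2-13B6 libraries do not overlap, taken by smallest adjusted p in each direction and at least 1 Mb apart. Gene starts come from GENCODE M21 and promoters from RefSeq. The lines, gene lists and comparisons were chosen with earlier results of these data known. Tests were checked on simulated data with 1 common spread, in which only members with a mean count at or above the median were changed. Of 100 such loops changed 2-fold 20 were called, and of 100 changed 4-fold 71, while for anchors 89 and 100 were called. Recovery at members with fewer counts was not measured. Depth limits precision: 95% intervals and zero floors of 3 counts cover counting error only, and read pairs are not independent molecules. Between replicates, chi-square per degree of freedom of the anchor counts was 1.55 in B6 and 1.10 in D2-13B6, so no replicates were merged. Libraries with the same replicate number did not deviate together (correlations −0.15 to 0.03), so the numbers were not used as pairs. Alternatives covered scaling, abundance trend, count minimum, threshold, DESeq2 1.42.0, a replicate block and leaving out each library. Added after seeing the data were the gene lists under each setting, the 5-kb bins within anchors, the 1-Mb windows, the 10-Mb bins of chromosome 13, the agreement by size and over all tested loops and anchors, and the abundance deciles. The positions of the chromosome 13 interval were not used, since the series' design text and the labels give different end markers for it. Which anchors of chromosome 13 lie within it is therefore not known here. The values of 1 list member are not reported here.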

Additional observations from a re-analysis of the deposited data

Results flagged for a closer look

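Among 7730 anchors with a coding start off chromosome 11, 366 had a called difference between the 2 background effects. For this, D2-13B6 against B6 was compared with D2 against B6-13D2 (edgeR test of the difference in log2 fold change). The 6 given here are the 3 in each direction with the smallest adjusted p, at least 1 Mb apart. Other anchors named above were also called, among them Hist1h4h (1.61), Btn2a2 (0.72) and Glo1 (0.64). The difference was 2.01 at the anchor from Hist1h1c to Trim38 on chromosome 13 (edgeR adjusted p = 3.75e-12), 1.55 at Hist1h1b and 1.27 at Hist2h3c2 on chromosome 3. At these 3 histone anchors B6 was the lowest and D2-13B6 the highest of the 4 lines, with D2 and B6-13D2 between them. The difference was −1.06 at Fgfbp3 with Btaf1 on chromosome 19, where both B6 libraries stood above the 6 others, and −1.43 at Rnase10 on chromosome 14, where they did so too. It was −1.06 at Obox6 on chromosome 7, where B6-13D2 was the lowest line. The differences at Hist1h1c, Fgfbp3, Obox6 and Rnase10 were recomputed under the other settings and kept their direction and their side of the threshold in each. Those at Hist1h1b and Hist2h3c2 were not recomputed.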

How the results depend on the processing

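The number of loop calls, 2191, was 632 with DESeq2, 1186 at an FDR of 0.01, 1372 with loops inside 1 anchor left out and 1037 to 1384 without any 1 library. The number of anchor calls, 3550, was 1368 with DESeq2, 2042 at an FDR of 0.01 and 1837 to 2788 without 1 library. With the replicate block there were 1957 loop and 3193 anchor calls. The 169 loop differences became 96 with library totals (48 higher, 48 lower, against 145 and 24), 67 with the abundance trend removed (35.8% higher), 84 at an FDR of 0.01, 110 with the replicate block and 47 to 184 without 1 library. The share higher was also 61.0% with the stricter minimum and 96.6% with DESeq2. The 728 anchor differences (69.6% higher) became 270 with the trend removed (29.3% higher), 380 with DESeq2 (95.8%), 261 at an FDR of 0.01 (80.1%), 471 with the replicate block and 128 to 902 without 1 library, and 20.2% were higher with library totals. The same-sign share of loops, 83.2%, was 85.1% with totals, 88.3% with the trend removed, 86.0% with DESeq2, 84.9% with the stricter minimum, 87.3% at an FDR of 0.01 and 80.9 to 88.4% without 1 library. For anchors, 79.5% became 87.6% with the trend removed, 81.3% with the stricter minimum, 83.4% at an FDR of 0.01 and 76.0 to 84.6% without 1 library. The mean chromosome 11 share in D2-13B6 was 14.2% over tested loops, and its long-loop share 27% without chromosome 11. With starts up to 5 kb from an anchor, 1 of 6 two-cell and germline anchors was called. The cause of these changes was not tested. Of 443 comparisons for the named loops 441 kept their direction and side of the threshold, and of 500 for 33 named anchors 491. The named ones were chosen for the smallest adjusted p, so this was largely set by the choice. It does not describe the other calls, whose numbers changed as given above. The 11 others kept direction, all on chromosome 11. Most loops held few counts, and in simulated data most 2-fold changes were not called even at loops with counts at or above the median.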

Other observations

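Other windows of 1 Mb had many of their anchors called in D2-13B6 against B6, mostly in 1 direction. On chromosome 17 from 36 to 37 Mb, which holds nonclassical histocompatibility genes and several Trim genes, 7 of 11 anchors were called higher and 1 lower, with a median log2 fold change of 0.56 against −0.02 in D2 against B6-13D2. On X, 8 of 12 anchors around Chic1 and Rlim, the gene of a ubiquitin ligase that promotes X inactivation, were called higher, and 7 of 11 around Usp9x and Ddx3x. Their medians were 0.66 in both windows, against −0.06 and 0.16 in the other pair of lines. All of X had a median of 0.34, and with its own scaling factor 20 of its 471 anchors were called higher and 36 lower. On chromosome 13 from 63 to 64 Mb, 10 of 19 anchors around Fancc, a DNA repair gene, and Ptch1, the Hedgehog receptor gene, were called lower before the chromosome's own scaling factor was used, with a median of −0.65 against −0.05. The window of Tert, the catalytic subunit gene of telomerase (chromosome 13, 73 to 74 Mb), had 5 of 10 called lower and all 10 below 0, with a median of −0.71 against 0.09, in the same fit without that factor. All of chromosome 13 had a median of −0.27 there, and its own factor lowered its fallen calls from 123 to 47. Lower windows shared by both pairs of lines included that of Lrpap1 and Acox3 on chromosome 5 (35 to 36 Mb, 6 of 8 called, medians −1.24 and −0.62) and that of Psap and Chst3 on chromosome 10 (60 to 61 Mb, 10 of 15 called, medians −1.23 and −0.70). These windows were chosen after their values were seen.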
